A study of Mus musculus with 12 samples.

Results

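Interferon response and antigen processing genes were compared between Ras-driven skin papillomas with and without epidermal Fos. The members were 38 named mouse genes, taken by their gene symbol on the array: interferon transcription factors, cytoplasmic RNA sensors, the ISG15 system, antiviral effectors, interferon-inducible GTPases, and the immunoproteasome and peptide loading genes of the MHC class I pathway. Of the 38, 33 had a probe with values and all 33 were tested, among 18861 features in all (12006 named genes and 6855 unnamed probes). Isg15, Ifit3, Xaf1, Gbp3 and Igtp had none, and they have no values below.

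Tail skin papillomas of 6 mice were profiled, 3 Fos-deficient (specimens 6, 8 and 9) and 3 Fos-floxed (specimens 2, 3 and 5). Every mouse carried a K5-Sos-F transgene, an active form of the Ras activator Sos under the keratin 5 promoter of basal keratinocytes, on a mixed background of the strains 129/Ola, C57BL/6, CBA, LVA and B6C3F1. Fos-deficient mice had lost both Fos alleles in the epidermis only, by the design, and Fos-floxed mice carried 2 intact floxed alleles. No source used here gives the Cre driver or the ages of the mice. Each specimen was hybridised on 2 arrays, with exchanged dyes, against a commercial RNA pool of 11 mouse cell lines. Values are log2 ratios of papilloma over this pool, so 0 means equal to the pool, and a difference is Fos-deficient minus Fos-floxed on that log2 scale. The pool holds a macrophage line and lymphocyte lines, so a negative ratio is a level below the pool and not absence. Keratinocyte marker genes had medians of 4.09 to 6.03 on the 12 arrays, and the tissue is labelled as skin. The question is whether interferon genes differed where epidermal Fos was lost.

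Type I interferons act through a receptor whose kinases phosphorylate STAT2. A complex that holds STAT2 and IRF9 binds interferon-stimulated response elements (ISRE) and switches on antiviral genes. Interferon gamma acts at gamma-activated sites (GAS) and induces IRF1, the immunoproteasome subunits and the peptide transporter, which together supply peptides to MHC class I molecules on the cell surface. In skin, keratinocytes and resident leukocytes both run this response.

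Letters of the ISRE and the GAS stood in the promoter windows of some members and not of others. RefSeq windows of 300 bases (250 before to 50 after the start, build GRCm38.p6) were found for 31 of the 38 members, in 35 windows, and were searched on both strands. The ISRE core (GAAA, any 2 bases, GAAA) stood in 16 of the 35 windows (45.7%), against 1131 of all 32851 mouse windows (3.44%). The GAS TTCNNNGAA stood in 9 member windows (25.7%), against 8.30% of all windows. TGANTCA, the site of Fos and Jun dimers (AP-1), stood in 7 member windows (20%), against 7.81% of all windows. The 7 genes with the AP-1 letters were Gbp2, Ifi35, Ifit3, Ifitm3, Irgm1, Rsad2 and Xaf1. A match describes these letters only. Below are the 6 measured members with an ISRE core and the smallest p-values, and then 2 immunoproteasome genes, each from 250 bases before to 30 after the start, 5′ to 3′ in the direction of transcription. Capitals mark the 3 motifs, and overlapping matches run together, as in Bst2 and Ifitm3.
Eif2ak2 (chr17:78882543-78882822, minus strand): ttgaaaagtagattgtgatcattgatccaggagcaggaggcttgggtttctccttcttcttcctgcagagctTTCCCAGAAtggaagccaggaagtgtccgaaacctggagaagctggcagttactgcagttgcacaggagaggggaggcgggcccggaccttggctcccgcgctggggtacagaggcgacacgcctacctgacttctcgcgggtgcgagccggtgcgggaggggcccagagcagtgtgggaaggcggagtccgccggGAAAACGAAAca
Bst2 (chr8:71537443-71537722, minus strand): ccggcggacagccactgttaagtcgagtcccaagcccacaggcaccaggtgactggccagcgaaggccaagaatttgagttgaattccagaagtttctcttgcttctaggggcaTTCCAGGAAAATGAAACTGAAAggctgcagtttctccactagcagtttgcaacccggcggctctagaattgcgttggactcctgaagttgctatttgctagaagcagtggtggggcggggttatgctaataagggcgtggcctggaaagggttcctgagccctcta
Ifitm3 (chr7:141010715-141010994, minus strand): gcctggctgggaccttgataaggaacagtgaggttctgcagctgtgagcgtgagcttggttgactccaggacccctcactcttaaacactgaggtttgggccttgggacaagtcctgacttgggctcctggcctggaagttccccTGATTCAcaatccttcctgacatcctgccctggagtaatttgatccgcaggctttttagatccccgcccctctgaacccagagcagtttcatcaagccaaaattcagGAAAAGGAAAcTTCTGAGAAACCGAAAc
Rsad2 (chr12:26456423-26456702, minus strand): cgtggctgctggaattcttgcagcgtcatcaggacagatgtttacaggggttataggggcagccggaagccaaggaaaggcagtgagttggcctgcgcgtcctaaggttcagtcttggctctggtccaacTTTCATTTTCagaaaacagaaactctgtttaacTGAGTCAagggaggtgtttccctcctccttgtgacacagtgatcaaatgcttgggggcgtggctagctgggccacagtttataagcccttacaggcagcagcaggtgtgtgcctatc
B2m (chr2:122147437-122147716, plus strand): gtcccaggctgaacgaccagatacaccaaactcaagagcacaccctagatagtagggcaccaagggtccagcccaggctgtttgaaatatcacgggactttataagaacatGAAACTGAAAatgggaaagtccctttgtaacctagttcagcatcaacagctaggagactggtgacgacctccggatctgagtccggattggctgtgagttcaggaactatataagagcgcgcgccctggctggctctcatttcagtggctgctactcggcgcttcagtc
Stat2 (chr10:128270248-128270527, plus strand): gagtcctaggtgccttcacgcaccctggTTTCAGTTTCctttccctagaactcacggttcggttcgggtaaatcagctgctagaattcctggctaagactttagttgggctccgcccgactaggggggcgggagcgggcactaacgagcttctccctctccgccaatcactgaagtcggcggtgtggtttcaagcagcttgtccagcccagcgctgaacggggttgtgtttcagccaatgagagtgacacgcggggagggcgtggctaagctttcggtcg
Psmb9 (chr17:34187301-34187580, minus strand): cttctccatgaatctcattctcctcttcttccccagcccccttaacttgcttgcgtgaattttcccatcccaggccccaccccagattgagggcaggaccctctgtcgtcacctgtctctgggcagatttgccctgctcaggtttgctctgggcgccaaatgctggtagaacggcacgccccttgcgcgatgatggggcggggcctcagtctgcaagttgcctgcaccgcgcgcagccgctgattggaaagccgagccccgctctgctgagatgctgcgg
Psmb8 (chr17:34197945-34198224, plus strand): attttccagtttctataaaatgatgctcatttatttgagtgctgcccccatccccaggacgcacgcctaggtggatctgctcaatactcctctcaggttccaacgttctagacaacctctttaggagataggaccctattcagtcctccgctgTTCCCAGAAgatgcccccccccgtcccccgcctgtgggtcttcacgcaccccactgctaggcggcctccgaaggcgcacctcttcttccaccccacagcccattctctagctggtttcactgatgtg
Bst2 and Ifitm3 held 2 ISRE cores each, the Ifitm3 window held all 3 motifs, Psmb8 held a GAS alone, and Psmb9 held none of them in this window. The window of Oasl2, the member with the smallest p-value, held none of them either and is not printed.

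Fos, the deleted gene, had log2 ratios of -4.01, -4.43 and -3.91 in Fos-deficient specimens 6, 8 and 9, and of -1.30, -0.56 and -1.56 in Fos-floxed specimens 2, 3 and 5. The groups did not overlap. The difference was -2.98 (SE 0.29), with a limma adjusted p of 0.183 and an exact permutation p of 0.1, two-sided, the smallest that 3 against 3 allows. No source used here says whether its 1 probe lies in the deleted stretch. No feature of the 18861 had a limma adjusted p under 0.05, and 11.9% of them had an unadjusted p under 0.05. When all 12 arrays were fitted with the specimen as a random block, 393 features passed, Fos among them at a limma adjusted p of 0.00124, and 0 of the members. That fit took 12 arrays from 6 mice. It gave every feature the same correlation, 0.602, between the 2 arrays of a specimen. The differences between genotypes below are given as values, and none of them passed the adjusted test.

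Across the 33 measured members, 24 were above 0 in the difference and 9 below, with a median of 0.10 (all features 0.03, with 55.1% above 0). The smallest adjusted p of a member was 0.280, for Oasl2. Without adjustment, 0 members were higher at p under 0.05, against 4.55% of all features, and 2 were lower, Oasl2 and Eif2ak2, against 7.31%. Groups did not overlap for 4 of the 32 members with values in all specimens, 2 higher (Bst2 and Rsad2), against 10.9% of all such features, and 2 lower (Oasl2 and Eif2ak2), against 9.09%. The share of members called was thus not above the background of these arrays. The count higher depended on Fos-deficient specimen 9. Without it, 6 members were higher at an unadjusted p under 0.05 and still 2 lower, where 19.2% of all features had such a p. The limma adjusted p of these 8 lay between 0.119 and 0.236. The counts of groups that did not overlap were not repeated with a specimen left out.

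**Figure D1:**
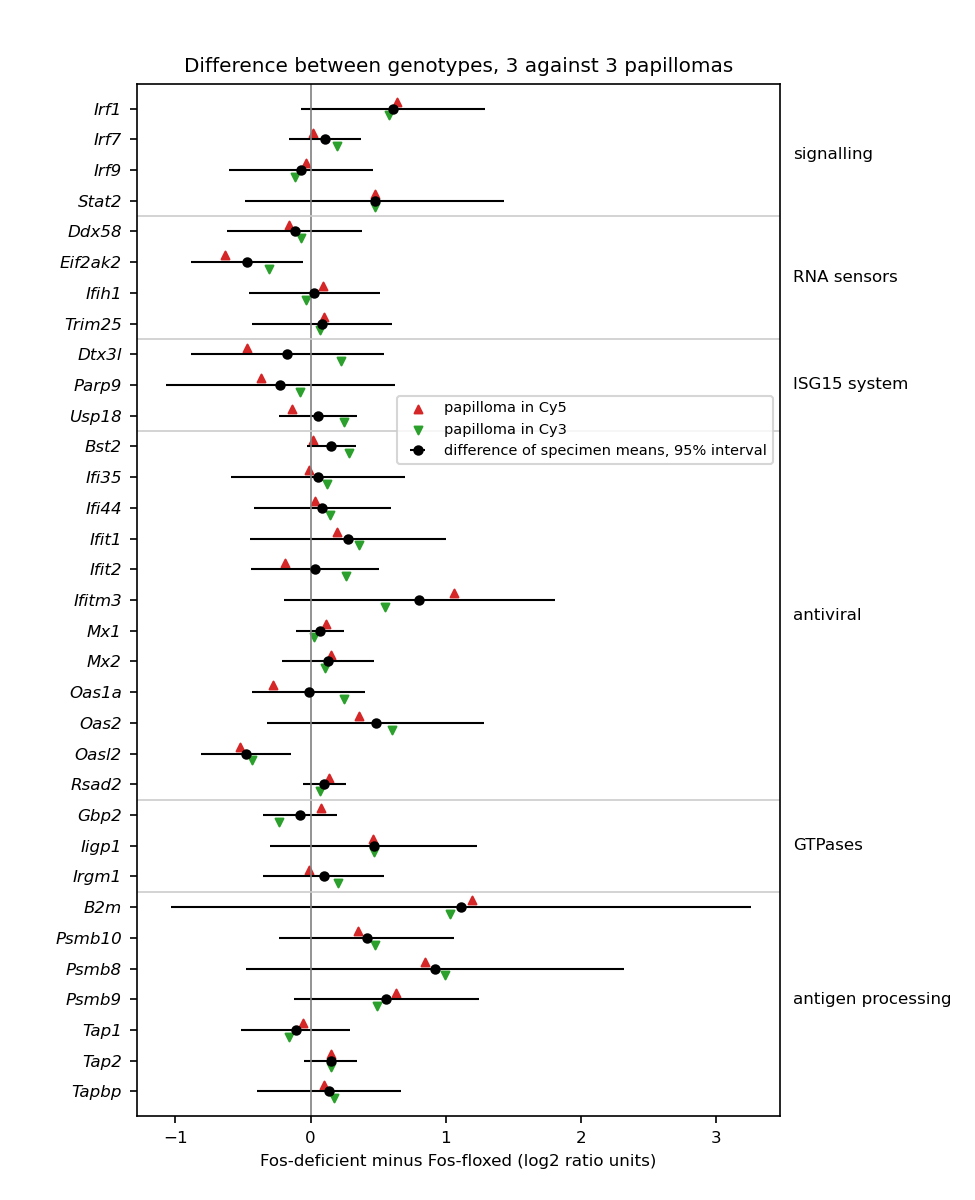
Difference in log2 ratio, Fos-deficient minus Fos-floxed, of the 33 measured members by role. Black points are differences of specimen means with the 95% limma interval, and triangles are the same difference in the arrays with the papilloma in Cy5 (red, up) or in Cy3 (green, down). The intervals of 31 members include 0, and those of Oasl2 and Eif2ak2 lie below it.

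Papillomas of one genotype differed among themselves in many of the members. The median within-group SD of the 33 members was 0.28, against 0.21 over all named genes and 0.19 over all features. It lay above the median of all features for 24 of the 33. It lay above their 90th percentile for 4, B2m, Psmb8, Ifitm3 and Stat2, a share near that which the percentile fixes for all features. Specimen 6 (Fos-deficient) held the highest value for 13 of the 32 and the lowest for 0, while specimen 2 (Fos-floxed) held the lowest for 13 and the highest for 0. Within the Fos-deficient group, specimen 6 was above specimen 9 for 28 of the 32 and specimen 8 above specimen 9 for 23.

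**Figure D2:**
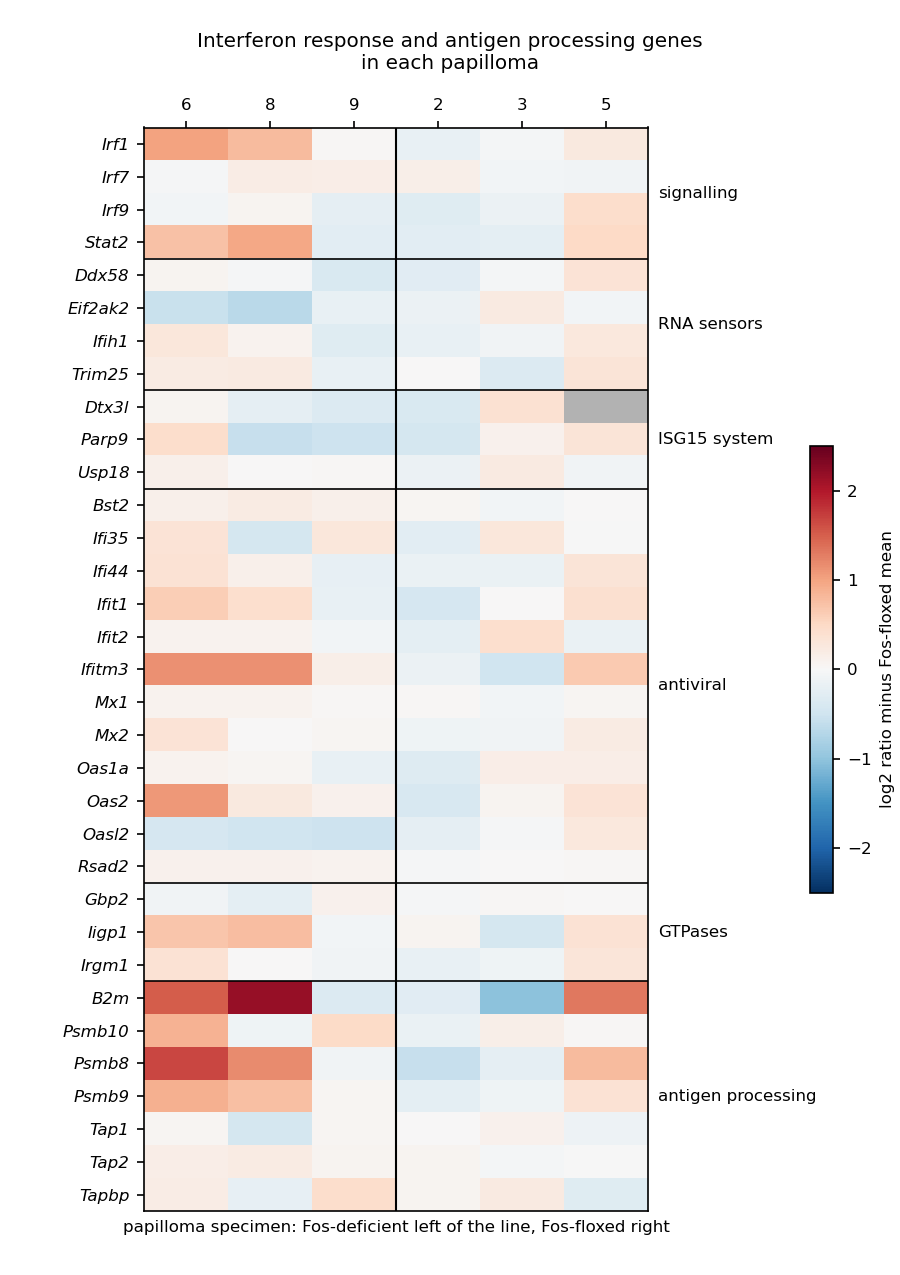
Log2 ratio of each measured member (row) in each papilloma (column), minus the mean of the Fos-floxed specimens. Fos-deficient specimens 6, 8 and 9 are left of the vertical line and Fos-floxed specimens 2, 3 and 5 right of it, and grey marks a missing value. In Stat2, Ifitm3, Psmb8, Psmb9 and B2m, red fills specimens 6, 8 and 5, from both genotypes.

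Averaged over the 32 members with values in all papillomas, the log2 ratio relative to the Fos-floxed mean was 0.39, 0.21 and -0.05 in Fos-deficient specimens 6, 8 and 9, and -0.17, -0.06 and 0.22 in Fos-floxed specimens 2, 3 and 5. Fos-deficient specimen 8 was level with Fos-floxed specimen 5, and Fos-deficient specimen 9 with Fos-floxed specimen 3. The same means without that centring were -0.71, -0.89 and -1.15 in Fos-deficient specimens, and -1.26, -1.16 and -0.87 in Fos-floxed specimens. The groups overlapped, and no test was made of a mean over the members. In bulk tissue, fewer cells of a type and less RNA per cell cannot be told apart.

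Among the transcription factors, Irf1, an activator induced most strongly by interferon gamma, had log2 ratios of -0.69, -0.91 and -1.66 in Fos-deficient specimens 6, 8 and 9, and of -1.88, -1.74 and -1.46 in Fos-floxed specimens 2, 3 and 5. Specimens 6 and 8 stood above all Fos-floxed specimens, and specimen 9 lay among them. The difference was 0.61 (SE 0.27, limma adjusted p = 0.467). Stat2, the DNA-binding complex's transactivating subunit, had ratios of -0.09, 0.13 and -1.10 in Fos-deficient specimens, and of -1.09, -1.06 and -0.34 in Fos-floxed specimens. Its values fell in a high set (6, 8 and 5) and a low set (9, 2 and 3) that crossed the genotypes, with a difference of 0.48 (SE 0.39, limma adjusted p = 0.659) that lay between 0.24 and 0.85 when each specimen was left out. Irf7, the factor that amplifies type I interferon production, had ratios of -0.40, -0.19 and -0.22 in Fos-deficient specimens, and of -0.22, -0.45 and -0.46 in Fos-floxed specimens. Its specimens spanned a narrow range and overlapped, with a difference of 0.11 (SE 0.11, limma adjusted p = 0.701). Irf9, the subunit that recognises the ISRE, differed by -0.07 (SE 0.21) and was highest in Fos-floxed specimen 5, at 0.63.

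Of the 4 RNA sensing members, Eif2ak2 was the one with groups apart. It encodes PKR, a kinase that binds double-stranded RNA and stops translation. Its log2 ratio was -1.24, -1.34 and -0.86 in Fos-deficient specimens 6, 8 and 9, and -0.83, -0.46 and -0.74 in Fos-floxed specimens 2, 3 and 5. All Fos-deficient specimens were below all Fos-floxed ones, by a small gap between specimens 9 and 2. The difference was -0.47 (SE 0.17, 95% interval -0.89 to -0.06, limma adjusted p = 0.368). It was below 0 in both dye orientations, at -0.64 with the papilloma in Cy5 and -0.31 with it in Cy3. The groups overlapped in the Cy3 arrays, where specimen 9 (-0.66) lay above specimens 2 (-0.85) and 5 (-0.83). The 2 arrays of one specimen differed by up to 0.40. Ddx58 (RIG-I), Ifih1 (MDA5) and Trim25, the ubiquitin ligase that acts on RIG-I, differed by -0.12, 0.03 and 0.08, with intervals that include 0. The 2 probes of Ddx58 differed in sign, at -0.36 and 0.13.

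In the ISG15 system, a ubiquitin-like modifier and its enzymes, Usp18 is the protease that removes ISG15. Its ratios lay between -3.47 and -3.11 in all 6 papillomas, with a difference of 0.06 (SE 0.12). Parp9 and Dtx3l, neighbouring genes on chromosome 16 whose products form one complex, were counted with this system. Parp9 had ratios of -0.48, -1.49 and -1.44 in Fos-deficient specimens 6, 8 and 9, and of -1.35, -0.81 and -0.58 in Fos-floxed specimens 2, 3 and 5. One specimen of each genotype stood apart from the other two, and the groups overlapped, with a difference of -0.22 (SE 0.34, limma adjusted p = 0.797), or between -0.55 and -0.05 with each specimen left out. The difference of Dtx3l was -0.17 (SE 0.27), from 2 Fos-floxed specimens, because specimen 5 had no value.

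The 12 measured antiviral effectors were above 0 in 10 cases and below in 2, with a median difference of 0.10. Oasl2, a member of the oligoadenylate synthetase family, had log2 ratios of -1.66, -1.74 and -1.76 in Fos-deficient specimens 6, 8 and 9, and of -1.46, -1.27 and -0.98 in Fos-floxed specimens 2, 3 and 5. It was lower in every Fos-deficient specimen, and those 3 lay close together. The difference was -0.48 (SE 0.13, 95% interval -0.81 to -0.14, limma adjusted p = 0.280). Its relatives Oas2 and Oas1a had differences of 0.48 (SE 0.32) and -0.01 (SE 0.17).

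Rsad2 (viperin) and Bst2 (tetherin, which holds budding virus at the cell surface) were higher in every Fos-deficient specimen, by small amounts. Rsad2 had ratios of 0.19, 0.19 and 0.18 in Fos-deficient specimens, and of 0.06, 0.09 and 0.11 in Fos-floxed specimens, a difference of 0.10 (SE 0.06, limma adjusted p = 0.584). Its specimens spread less than those of nearly all other features. They spanned 0.14, while the 2 arrays of one specimen differed by up to 0.50, and the groups overlapped in the Cy3 arrays. Bst2 had ratios of -0.17, -0.10 and -0.19 in Fos-deficient specimens, and of -0.25, -0.38 and -0.29 in Fos-floxed specimens, a difference of 0.15 (SE 0.07, limma adjusted p = 0.488). The Bst2 difference was 0.02 with the papilloma in Cy5 and 0.29 with it in Cy3. Its groups overlapped in the Cy5 arrays. The 2 arrays of one specimen differed by up to 0.74, against a specimen range of 0.28.

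Ifitm3, which blocks fusion of virus in endosomes, was the antiviral member with the largest difference, 0.81 (SE 0.40, limma adjusted p = 0.510). Its ratios were -0.49, -0.49 and -1.47 in Fos-deficient specimens 6, 8 and 9, and -1.77, -2.12 and -0.97 in Fos-floxed specimens 2, 3 and 5. Specimens 6 and 8 were high, specimen 5 came next, and the genotypes overlapped. The difference was 1.06 in the Cy5 arrays and 0.55 in the Cy3 arrays. Ifit1 and Ifit2, which bind foreign RNA ends or act on translation, differed by 0.28 (SE 0.29) and 0.04 (SE 0.19). The dynamin-like Mx1 and Mx2 differed by 0.07 (SE 0.07) and 0.13 (SE 0.14), and Ifi44 and Ifi35 by 0.09 and 0.06. Array probes of such families can bind transcripts of close relatives, which was not tested.

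Among the GTPases that attack the vacuoles of intracellular microbes, Iigp1 had log2 ratios of 0.39, 0.47 and -0.38 in Fos-deficient specimens 6, 8 and 9, and of -0.24, -0.74 and 0.06 in Fos-floxed specimens 2, 3 and 5. Specimens 6, 8 and 5 were again the upper ones, and the genotypes overlapped, with a difference of 0.47 (SE 0.31, limma adjusted p = 0.604), or between 0.25 and 0.74 with each specimen left out. The regulator Irgm1 and the guanylate-binding protein Gbp2 differed by 0.10 (SE 0.18) and -0.08 (SE 0.11).

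Antigen processing held the largest differences and the largest spreads. Of its 7 members, 6 were above 0, with a median difference of 0.42, and 0 had an unadjusted p under 0.05. B2m, the invariant light chain of MHC class I, had log2 ratios of 0.58, 1.24 and -1.28 in Fos-deficient specimens 6, 8 and 9, and of -1.22, -1.96 and 0.38 in Fos-floxed specimens 2, 3 and 5. Values of 6, 8 and 5 lay above the reference pool and those of 9, 2 and 3 below it, so both genotypes had papillomas on each side. The specimens spanned 3.20 log2 units, while the 2 arrays of one specimen differed by at most 0.26. This was not so for all members. The specimen range exceeded the largest such gap for 19 of the 32 members with values in all specimens. The difference had the same sign in both dye orientations for 25 of the 33 tested. The within-group SD of B2m was at the 99.5th percentile of all features. The difference between genotypes was 1.11 (SE 0.86, 95% interval -1.03 to 3.26, limma adjusted p = 0.646), and it lay between 0.58 and 1.84 when each specimen in turn was left out.

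**Figure D3:**
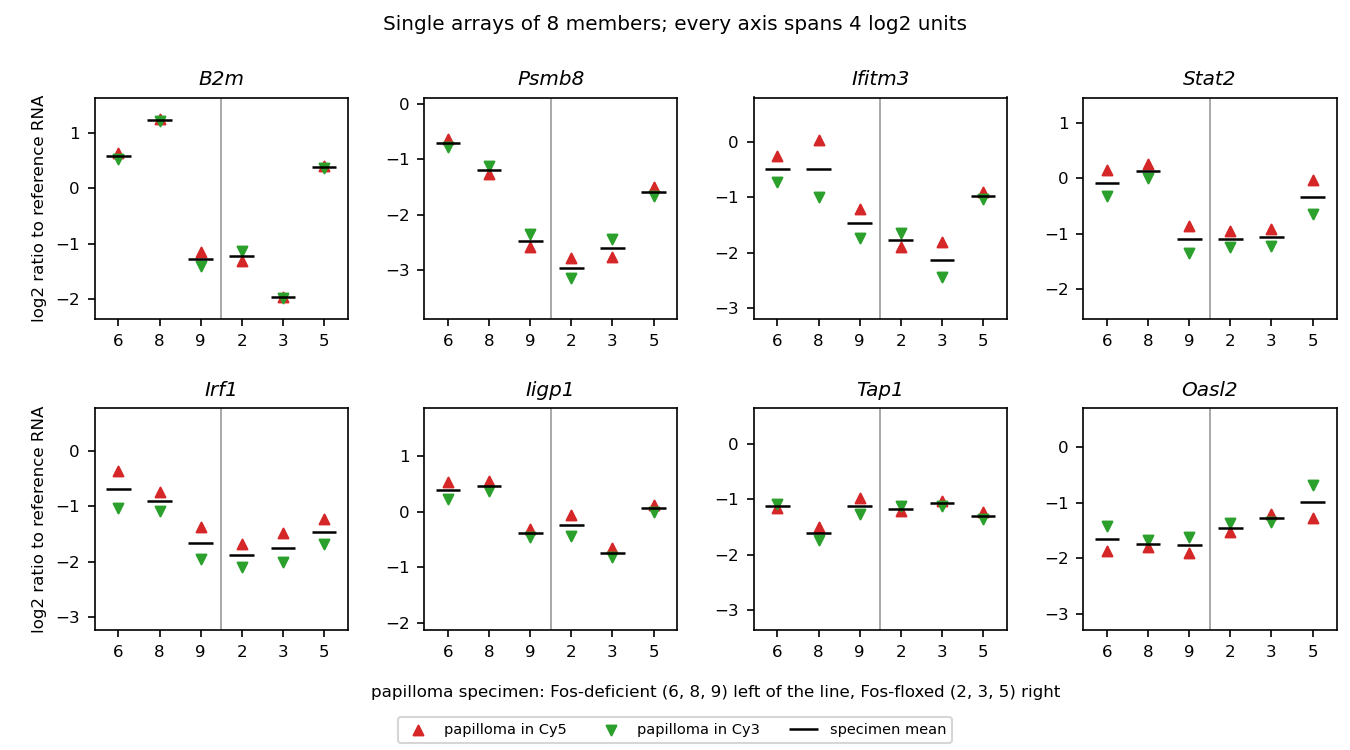
Log2 ratio to the reference pool on each array for 8 members, with Fos-deficient specimens 6, 8 and 9 left of the line and Fos-floxed specimens 2, 3 and 5 right of it. Red and green triangles are the arrays with the papilloma in Cy5 and Cy3, bars are specimen means, and every axis spans 4 log2 units. B2m, Psmb8, Stat2 and Iigp1 are high in 6, 8 and 5, Tap1 is lowest in specimen 8, and Oasl2 separates the genotypes.

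The inducible proteasome subunits replace the constitutive catalytic ones when interferon acts, and change which peptides are cut. Psmb8 had log2 ratios of -0.71, -1.19 and -2.47 in Fos-deficient specimens 6, 8 and 9, and of -2.95, -2.60 and -1.58 in Fos-floxed specimens 2, 3 and 5. Its order over the specimens had 6, 8 and 5 at the top and 2 at the bottom, with a difference of 0.92 (SE 0.56, limma adjusted p = 0.581), or between 0.55 and 1.43 with each specimen left out. Psmb9 had ratios of 0.20, 0.07 and -0.64 in Fos-deficient specimens, and of -0.93, -0.79 and -0.32 in Fos-floxed specimens, with a difference of 0.56 (SE 0.28, limma adjusted p = 0.500). This value came from 1 probe, which differed by 0.63 in the Cy5 arrays and 0.49 in the Cy3 arrays, and by 0.40 to 0.82 with each specimen left out. Here too specimen 5 lay above specimen 9. A second Psmb9 probe, with no value in specimen 8, differed by -0.08. Settings that gave this probe values in all specimens averaged it in. The Psmb9 difference was then 0.20 with specimen values from 1 or 2 arrays, and 0.31 in the fit of the Cy5 arrays alone. Psmb10 had its own order, with ratios of -0.46, -1.45 and -0.85 in Fos-deficient specimens and of -1.51, -1.20 and -1.31 in Fos-floxed specimens, and a difference of 0.42 (SE 0.26, limma adjusted p = 0.586).

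The peptide transporter and its bridge to MHC class I did not follow this pattern. Tap1 had ratios of -1.12, -1.62 and -1.12 in Fos-deficient specimens 6, 8 and 9, and of -1.17, -1.07 and -1.30 in Fos-floxed specimens 2, 3 and 5. Specimen 8, the highest for B2m, was the lowest for Tap1, and the other specimens lay close together, with a difference of -0.11 (SE 0.16, limma adjusted p = 0.793). Psmb9, Tap1, Psmb8 and Tap2 lie next to each other on chromosome 17. Tap2, the transporter's other half-molecule, differed by 0.15 (SE 0.08, limma adjusted p = 0.524). Tapbp (tapasin) differed by 0.14 (SE 0.21), as the mean of 2 probes whose ratios lay far apart, at -0.74 to -0.43 and -4.63 to -3.39.

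MHC class I genes outside the members were measured for 13 of 20 listed, and 12 were above 0 with a median difference of 0.13. None had an unadjusted p under 0.05. H2-K1, a classical class I heavy chain, had log2 ratios of 0.95, 0.74 and -0.67 in Fos-deficient specimens 6, 8 and 9, and of -0.49, -0.92 and 0.51 in Fos-floxed specimens 2, 3 and 5. The high and low specimens were those of B2m, its partner chain, with a difference of 0.64 (SE 0.56, limma adjusted p = 0.680). Class I genes are close copies of each other and vary between strains, and the mice were of mixed background, so single H2 values are uncertain. Hfe differed by 0.57 (SE 0.35) and H2-Q1 by -0.19 (SE 0.08). Groups did not overlap for 1 of 12 complete class I genes higher and 1 lower (H2-Q1), against 10.9% and 9.09% of all such features. Means over these 12 genes, relative to the Fos-floxed mean, were 0.53, 0.06 and -0.03 in Fos-deficient specimens 6, 8 and 9. They were -0.22, -0.10 and 0.32 in Fos-floxed specimens 2, 3 and 5. Specimen 8, the highest for B2m, was thus near specimen 9 in this mean. Of 16 constitutive proteasome and peptide loading genes, 9 were above 0 and 7 below, from -0.92 to 0.40 with a median of 0.01. At an unadjusted p under 0.05, 1 was lower (6.25%), against 7.31% of all features. That gene was Psmb2, a proteasome subunit, with a difference of -0.30 (SE 0.12, limma adjusted p = 0.409). Pdia3, of the peptide loading complex, had the next smallest p and a difference of -0.69 (SE 0.32, limma adjusted p = 0.481). The mean over the 15 genes of this list with values in all papillomas, taken from the Fos-floxed mean, was -0.10 to 0.03 over the 6 papillomas. The antigen processing members had 0.77, 0.51 and 0.09 in Fos-deficient specimens and -0.16, -0.14 and 0.30 in Fos-floxed specimens on the same scale. No gene of the related lists had a limma adjusted p under 0.05.

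Other genes of the pathway were listed as well. Of 12 receptor and kinase genes, 5 were above 0 and 7 below, with a median of -0.09. At an unadjusted p under 0.05, 2 were higher and 1 lower (25% of this short list), against 11.9% of all features in either direction. The lower one, Il10rb, a receptor chain shared by interleukin 10 and interferon lambda, had the largest difference of the list. Its log2 ratios were 0.29, -0.36 and -0.68 in Fos-deficient specimens 6, 8 and 9, and 0.86, 0.98 and 0.26 in Fos-floxed specimens 2, 3 and 5. The groups overlapped by specimens 6 and 5, and the difference was -0.95 (SE 0.31, limma adjusted p = 0.339). Ifnar2, a chain of the type I receptor, had log2 ratios of -0.76, -0.77 and -0.96 in Fos-deficient specimens 6, 8 and 9, and of -1.27, -1.03 and -1.27 in Fos-floxed specimens 2, 3 and 5. It was higher in every Fos-deficient specimen, by 0.36 (SE 0.11, limma adjusted p = 0.301). Tyk2, the kinase bound to the partner chain, had ratios of -0.17, -0.17 and -0.13 in Fos-deficient specimens, and of -0.39, -0.32 and -0.40 in Fos-floxed specimens. It was likewise higher in every Fos-deficient specimen, by 0.21 (SE 0.07, limma adjusted p = 0.316). The 5 interferon ligands and inducers tested differed by 0.02 to 0.11, Ifna1 by 0.11 and Il12b by 0.06.

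In the sensing pathway 5 of 11 genes were above 0. Sting1, the adaptor for cytoplasmic DNA, had log2 ratios of 0.83, 0.10 and -0.44 in Fos-deficient specimens 6, 8 and 9, and of -1.30, -1.14 and -0.38 in Fos-floxed specimens 2, 3 and 5. Its groups overlapped only between specimens 9 and 5, and the difference was 1.10 (SE 0.40, limma adjusted p = 0.379). Aim2 differed by -0.26 (SE 0.12). Of 6 genes listed with the other interferon regulatory factors, 4 were above 0, with Irf8 at 0.63 (SE 0.39). Irf2bp2, which encodes a protein that binds IRF2 and not such a factor, differed by -0.84 (SE 0.30, limma adjusted p = 0.370). It was lower in every Fos-deficient specimen, and the only gene of this list with an unadjusted p under 0.05.

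The other interferon-induced genes numbered 36 tested, with 25 above 0 and a median of 0.14. At an unadjusted p under 0.05, 3 were higher and 2 lower. This was 13.9% of the list, near the 11.9% of all features with such a p. Sp100, a nuclear body protein, had log2 ratios of -0.42 and -0.41 in Fos-deficient specimens 6 and 8, no value in specimen 9, and -1.01, -1.03 and -0.84 in Fos-floxed specimens 2, 3 and 5. Its difference was 0.55 (SE 0.10, limma adjusted p = 0.216). The other 2 higher ones were Ifitm2 (0.51) and Oas1c (0.54). Ifi205, of the DNA-binding HIN-200 family, had ratios of -1.32, -1.80 and -2.08 in Fos-deficient specimens, and of -0.92, -0.92 and -1.03 in Fos-floxed specimens. It was lower in every Fos-deficient specimen, with a difference of -0.78 (SE 0.20, limma adjusted p = 0.262). The other lower one, Lgals3bp, differed by -0.87.

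Markers of other cell types were read beside these values, since leukocytes and stroma can run the same response. List means are over the genes with values in all 6 papillomas, which can be fewer than those tested. Beside the counts of these short lists, 4.55% of all features were higher and 7.31% lower at an unadjusted p under 0.05. General leukocyte markers (7 listed, 6 tested) had 5 above 0, 2 of them at an unadjusted p under 0.05 (Coro1a and Arhgdib), and means relative to the Fos-floxed mean of 0.53, 0.29 and 0.10 in Fos-deficient specimens 6, 8 and 9, and of -0.24, 0.06 and 0.18 in Fos-floxed specimens 2, 3 and 5. Specimen 6 was highest and specimen 2 lowest, as for the members. Dendritic and Langerhans cell markers (4 tested) had means of 0.25, 0.35 and 0.19 in Fos-deficient specimens and of -0.24, -0.37 and 0.61 in Fos-floxed specimens. Here too specimen 5 stood apart from 2 and 3. Macrophage markers (9 tested) had 0.54, -0.58 and -0.55 in Fos-deficient specimens and -0.21, -0.01 and 0.22 in Fos-floxed specimens.

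Specimens 8 and 9, the highest and one of the low papillomas for B2m, had nearly equal means for macrophage markers. Their medians over the same genes were not equal. The median log2 ratio was -1.27 in specimen 8, the lowest of the 6 papillomas, and -0.42 in specimen 9, the highest. Endothelial markers (7 tested) had means of 0.01, -0.99 and -0.05 in Fos-deficient specimens and between -0.26 and 0.13 in Fos-floxed specimens. T and NK cell markers (7 tested) had means between -0.08 and 0.03 in Fos-deficient specimens and between -0.19 and 0.23 in Fos-floxed specimens. Neutrophil markers (3 tested, 1 of them, S100a8, higher at an unadjusted p under 0.05) had means between -0.14 and 0.05 in Fos-deficient specimens and between -0.19 and 0.16 in Fos-floxed specimens. S100a8 had log2 ratios of 4.23 to 5.04, in the range of the keratinocyte marker medians on the arrays (4.09 to 6.03). Which cells held S100a8 was not tested. Fibroblast markers (6 tested) had means between -0.17 and 0.05 in Fos-deficient specimens and between -0.28 and 0.15 in Fos-floxed specimens. Single fibroblast markers differed by -1.29 to 1.82, and 1, Dcn, was higher at an unadjusted p under 0.05 (1.82, limma adjusted p = 0.308, no value in specimen 9). Plasmacytoid dendritic cell markers (3 tested) lay between -0.17 and 0.11 in Fos-deficient specimens and between -0.24 and 0.25 in Fos-floxed specimens. Their log2 ratios had means of 1.35 to 1.84 and medians of -0.94 to 0.46, so these 3 genes stood far apart in level. Keratinocyte markers (12 tested) had means between -0.25 and 0.05 in Fos-deficient specimens and between -0.07 and 0.07 in Fos-floxed specimens. Single keratinocyte markers differed by -1.23 to 0.19, and 2 were lower at an unadjusted p under 0.05, Dsg3 (-1.23, limma adjusted p = 0.183, the smallest of all features) and Trp63 (-0.41, limma adjusted p = 0.356). A ratio to a pool has no zero level, and the part of these cells in the interferon gene values was not tested.

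**Figure D4:**
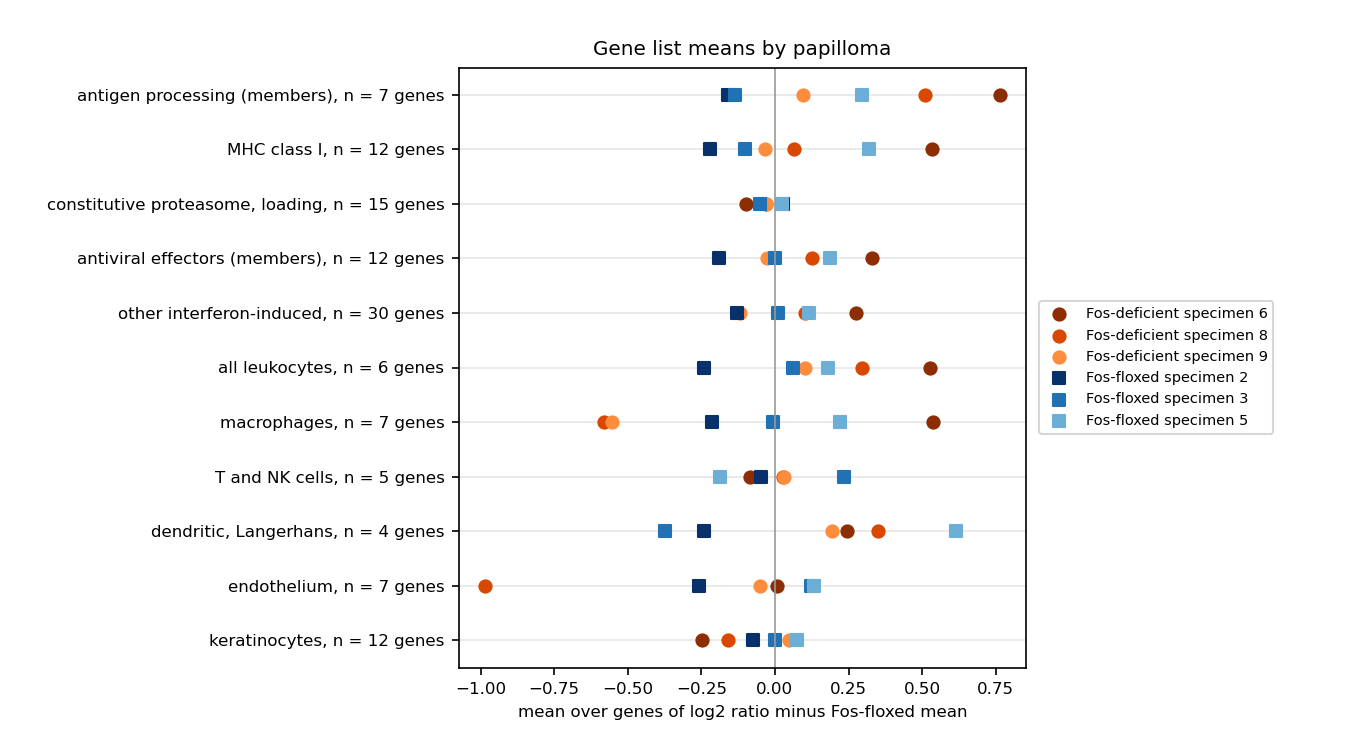
Mean over the genes of a list with values in all 6 papillomas, as log2 ratio minus the Fos-floxed mean. Circles are Fos-deficient specimens 6, 8 and 9 and squares are Fos-floxed specimens 2, 3 and 5. Antigen processing and MHC class I run from specimen 2 up to specimen 6 with specimen 5 in the upper part, constitutive proteasome genes lie within -0.10 and 0.03, and endothelial markers are lowest in specimen 8.

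The Y-linked gene Eif2s3y, looked up after its values were seen, had log2 ratios of -2.98, 2.64 and 2.04 in Fos-deficient specimens 6, 8 and 9, and of -3.39, -2.92 and 2.61 in Fos-floxed specimens 2, 3 and 5. Eif2s3y and B2m were both high in specimens 8 and 5 and both low in specimens 2 and 3, while specimen 6 was low for Eif2s3y and high for B2m, and specimen 9 the reverse. Eif2s3y was thus high in Fos-deficient specimens 8 and 9 but in Fos-floxed specimen 5 alone, so the genotypes were not balanced for this Y-linked gene. The part of sex in these values was not tested.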

How the data were processed

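The deposited values are log ratios of spotted 2-colour arrays, 1 per probe and array, which the authors had already processed, and they were read as log2 values with the papilloma on top. No source used here gives the base, background correction or normalization. A natural log is possible, and every value would then be in natural log units. The direction is likely and not stated. It rests on keratinocyte markers far above 0 and on positive correlations among all 66 array pairs (r between 0.705 and 0.963), for which no sign was turned. The table held 37632 probes, 17876 of them with a value on all 12 arrays, and 9046 with none. The number of arrays limits the precision, and spot signals were not analysed here.

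Symbols came from the platform annotation, which gave 1 symbol for 20879 probes. Of 16964 symbols, 12801 were current in the RefSeq table of GRCm38.p6, 4006 were updated through a synonym and 157 kept their old form. Irf9 and Irgm1 were found by synonym. A platform symbol Gbp4 that could also mean Gbp3 was not used. Of the members, 31 rested on 1 probe.

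The 2 arrays of a specimen were averaged. Probes of a gene with values in all specimens were averaged, and otherwise the probe with values in most specimens stood for the gene. Features with at least 2 specimens per group were fitted with limma 3.58.1 (statmod 1.5.0, R 4.3.3; lmFit and eBayes, two-sided), on 3 specimens from 3 mice per genotype, with Benjamini-Hochberg adjustment over all 18861 features and a threshold of 0.05. The script was tested on simulated data. The 2 arrays of a specimen counted as 1 replicate. Python 3.11.15 with pandas 2.3.3, numpy 2.4.6 and matplotlib 3.10.9 served for tables and figures.

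The members and gene lists were chosen with earlier results of these data known. All 6 specimen values are printed for members with an unadjusted p under 0.05 or groups that do not overlap, for the smallest p of each role, for the largest difference in each direction, and for Irf7, Stat2, Irf1, Psmb8, Tap1 and B2m. Ifitm3 and Psmb10 were added after their values were seen. Of each related list the 2 genes with the smallest p are named, and H2-K1. Il10rb, Ifitm2, Oas1c, Lgals3bp and the single marker genes were named after their values were seen. Promoter windows are from RefSeq. The alternatives were median-centred and quantile-normalized arrays, complete probes, 1 or 2 arrays per specimen, single probes, each dye alone, a random specimen block, array weights, eBayes with trend and robust, and each specimen left out.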

Additional observations from a re-analysis of the deposited data

How the results depend on the processing

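The 16 alternatives comprised 10 changes of processing and 6 fits that each left out 1 specimen. No member passed the adjusted threshold in any of them, and the median difference of the members (0.10 as reported) stayed above 0. It lay between 0.024 and 0.17 when specimens were left out, and was 0.18 with quantile normalization, 0.20 in the Cy3 arrays alone and 0.26 with array weights. Without Fos-deficient specimen 6, the member median of 0.024 was not above the median of all features, 0.027. In every other setting the member median was above that of all features. The count of members higher at an unadjusted p under 0.05, 0 as reported, was 1 with median-centred arrays (Bst2), 2 with quantile normalization (Bst2 and Usp18), 1 in the Cy5 arrays alone (Ifitm3), 1 in the Cy3 arrays alone (Bst2), 1 with a random specimen block (Irf1) and 7 with array weights (Ifitm3, Irf1, Oas2, Psmb10, Psmb8, Psmb9 and Stat2). Array weights ranged from 0.379 for Fos-deficient specimen 9 to 7.77 for Fos-floxed specimen 2, and 21.2% of all features then had such a p. Leaving out specimens gave 0 to 6, with 6 without Fos-deficient specimen 9, 1 without Fos-deficient specimen 8 (Psmb10) and 1 without Fos-floxed specimen 5 (Ifitm3). Of all features, in either direction, 12.2% had such a p with median-centred arrays, 13.1% with quantile normalization and 12% in the Cy5 arrays alone. The share was 12.9% in the Cy3 arrays alone, 14.6% with the random block, and 6.95% to 19.2% with specimens left out. The count lower, 2 as reported, was 1 with quantile normalization, 0 in the Cy3 arrays alone, 1 with array weights, and 1 to 2 with specimens left out (1, Oasl2, without specimen 6, 8, 3 or 5). Features past the adjusted threshold, 0 as reported, numbered 1 in the Cy3 arrays alone and 393 with the random block (300 lower, 93 higher), and 0 with any 1 specimen left out. Fos kept its difference of -2.98 with the random block, at a limma adjusted p of 0.00124. Tap1 (-0.11 as reported) turned to 0.024 with quantile normalization and lay between -0.19 and 0.057 with specimens left out, above 0 without Fos-deficient specimen 8. With array weights, Irf7 turned to -0.056 and Parp9 to 0.34. The cause of these changes was not tested. No paired analysis was possible because the genotypes share no specimen number. With 3 mice per genotype, the 95% interval of the B2m difference ran from -1.03 to 3.26.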
